A study of Mus musculus with 6 samples.

Results

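The genes described here build the DNA replication machinery and supply its nucleotides. The list holds 43 genes: *Mcm2* to *Mcm7* of the replicative helicase and *Mcm10*, which codes for a factor that helps to activate it, *Orc1* to *Orc6* of the origin recognition complex, the licensing genes *Cdc6*, *Cdt1* and *Gmnn*, the origin firing genes *Gins1* to *Gins4*, *Cdc45*, *Cdc7* and *Dbf4*, 9 DNA polymerase and primase genes, *Rfc1* to *Rfc5* of the clamp loader, *Rrm1*, *Rrm2*, *Rrm2b*, *Tyms* and *Tk1* of nucleotide supply, and *E2f1*. The genes were listed by name, and their promoters were taken as the sequence within 2000 bp of a GENCODE M21 transcription start site on mm10. All 43 had a promoter peak in each of the 6 libraries and exactly 1 peak that could be ranked across the libraries, and these 43 peaks were followed among 12959 ranked promoter peaks and 28432 ranked peaks in all.

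Chromatin accessibility was measured by ATACseq in GL261, a mouse glioma line, here stably expressing pEGFP-N1, a vector coding for a green fluorescent protein, in every group. The cells were kept for 16 h at 21% O2 (normoxia), 1% O2 (moderate hypoxia) or <0.1% O2 (severe hypoxia), the time in normoxia being taken from the study and not from the labels, and fixed with formaldehyde before lysis, with 2 libraries per group. All libraries come from 1 cell line, and the labels do not say whether the 2 libraries of a group came from separate cultures. No gene was deleted and no drug was given, so oxygen is the only difference that the labels name between the groups.

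Before a cell copies its DNA, the origin recognition complex together with Cdc6 and Cdt1 loads the MCM helicase onto origins, while geminin (Gmnn) holds Cdt1 in check. The Cdc7 kinase with its activator Dbf4, and the proteins Cdc45 and GINS, then turn the loaded helicase into a working one. Primase and the polymerases alpha, delta and epsilon synthesise DNA at the fork, the RFC clamp loader places the sliding clamp, and ribonucleotide reductase, an enzyme that needs oxygen to form its radical, provides deoxynucleotides. Many of these genes are known targets of E2F transcription factors in dividing cells.

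2 measures were read at each promoter peak. The fold is the height of a peak over its local background as the peak caller wrote it, and the pileup is the number of fragments stacked at the peak summit, recovered from the fold and the p-value. Each was turned into a percentile rank, from 0 for the lowest to 100 for the highest, among the 28432 peaks found in all 6 libraries, giving a fold rank and a pileup rank. A gene was called lower or higher when the libraries of the 2 groups did not overlap in rank and their means differed by 10 percentile points or more. This is a rule of size and no test: with 2 libraries against 2, an exact two-sided permutation test cannot give a p below 0.333, and a peak can meet the rule through replicate spread alone. The share of all ranked promoter peaks that met the same rule is therefore given beside the counts. As a value on a linear scale, the summit pileup was divided by the median pileup of the ranked peaks of its library, which is called the level below.

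The libraries held 33006 to 43554 peaks. As a stand-in for depth, the recovered genome coverage was 2.16 and 2.36 fragments in the normoxic libraries and 2.93 to 3.35 fragments in the hypoxic ones, so that normoxia was the shallowest group. The local background in the fold, relative to genome coverage, was 2.36 to 2.39 at 21% O2, 1.96 to 2.09 at 1% O2 and 1.84 to 1.88 at <0.1% O2, and its part in the fold ranks was not tested. Of 9 glial genes looked at, 7 had a promoter peak in all 6 libraries, among them *Gfap*, *Olig2* and *Nes*, *Fabp7* had one in 3 libraries and *Sox9* in none. None of 4 immune genes (*Ptprc*, *Cd3e*, *Itgam* and *Cx3cr1*) had a promoter peak in any library. The endothelial *Cdh5* and *Kdr* had none while *Pecam1* had one in 5 libraries, and of the neuronal genes *Tubb3* and *Syt1* had one in all 6 and *Rbfox3* in none.

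In normoxia the replication promoters were among the more open ones. Their median pileup rank at 21% O2 was 79.5, against 65.2 over all ranked promoter peaks, and their median fold rank was 82.6 against 60.8. They were not wider or richer in GC, with a median width of 954 bp against 976 bp and a median GC content of 58.5% against 59.5%. The range among the genes was wide. *Rrm2b*, a p53-inducible small subunit of ribonucleotide reductase, stood at a normoxic pileup rank of 99.9, and *Rfc2*, a small clamp loader subunit, was the lowest at 41.6. The summit lay within 100 bp of a start site of the gene in 28 of 43 genes and within 250 bp in 41, with a median distance of 65.5 bp. The 2 exceptions were *Prim2*, with the summit 600 bp upstream, and *Tk1*, with the summit 1290.5 bp downstream of its start site. For 10 genes the peak also covered the promoter of another coding gene, so that its height belongs to both: *Mcm4* shares it with *Prkdc*, *Mcm7* with *Ap4m1*, *Orc1* with *Prpf38a*, *Orc3* with *Rars2*, *Orc4* with *Mbd5*, *Orc6* with *Vps35*, *Cdc45* with *Ufd1*, *Dbf4* with *Slc25a40*, *Pole* with *Pxmp2* and *Tk1* with *Afmid*.

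E2F words stood in the promoters of 14 of these genes. RefSeq promoter windows of 300 bases (250 before and 50 after the start, GRCm38.p6) were found for 34 of the 43 genes. For *Cdc6*, *Cdc45* and *E2f1* the RefSeq start lay 350, 346 and 466 bp from the GENCODE start of the ranked peak, and for *Mcm5*, *Mcm7* and *Orc6* 60, 65 and 57 bp, so that their windows do not reach that start. The genes without an entry were *Mcm4*, *Gmnn*, *Gins1*, *Gins2*, *Gins4*, *Prim2*, *Pole*, *Rfc2* and *Rrm2b*. The E2F words searched, on both strands, were TTTCCCGC, TTTCGCGC, TTTGCCGC and TTTGGCGC. At least 1 was present in 14 of 34 windows (41.2%), against 4.35% of 9831 genes with a ranked promoter peak and 2.26% of all 32851 windows. The genes that hold one were *Mcm3*, *Mcm5*, *Mcm6*, *Mcm7*, *Cdc6*, *Cdt1*, *Orc1*, *Orc3*, *Gins3*, *Pola1*, *Pold1*, *Pold3*, *Pole2* and *Rfc3*. The ETS word CCGGAAG was present in 38.2% of the members' windows against 19.6% of those with a ranked peak, and the NF-Y box CCAAT in 52.9% against 39.3%. The HIF core (ACGTG or GCGTG) was present in 61.8% against 65.7%, the GC box GGGCGG in 79.4% against 68.0%, and the cell-cycle homology words TTTGAA and TTCGAA in 20.6% against 12.7%. These are counts of letters in a fixed window, with no test, and not sites of binding.

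**Figure D1:**
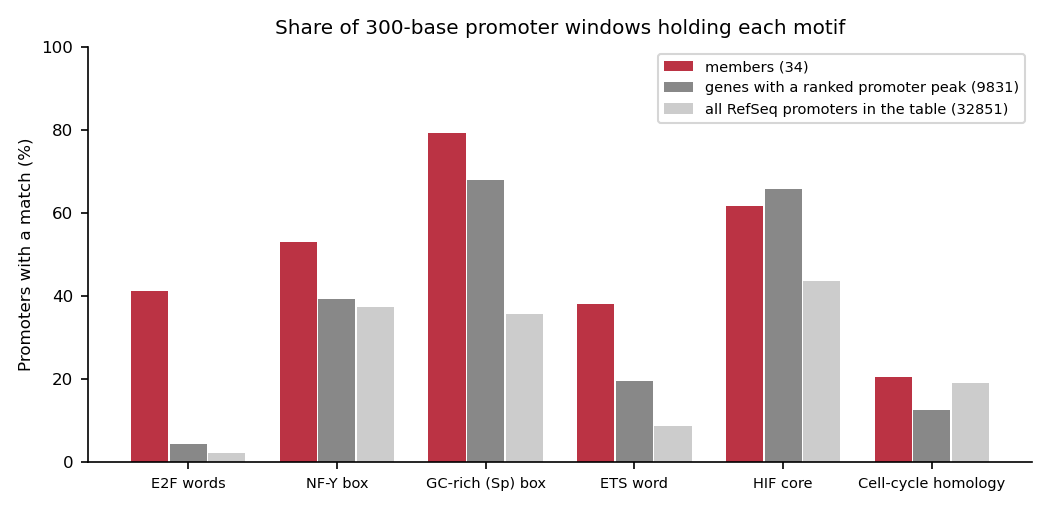
Share of 300-base RefSeq promoter windows (vertical axis, percent) that hold at least 1 match to each motif, for 34 replication and nucleotide supply genes (red), 9831 genes with a ranked promoter peak (dark grey) and all 32851 windows (light grey). The E2F words were present in 41.2% of the members against 4.35% and 2.26%, the widest gap to the open promoters, while the HIF core is about as frequent in the members as in the other open promoters.

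The 250 bases before the RefSeq start are shown for 5 genes, 5′ to 3′ on the strand of the gene, with E2F words in capitals, so that the promoters can be read beside their values. *Mcm5* (chr8:75109259-75109508, plus strand) and *Mcm6* (chr1:128359706-128359955, minus strand) hold overlapping E2F words on opposite strands, from -153 to -142 and from -110 to -99 relative to the start, and *Mcm6* holds another from -47 to -40. *Rrm1* (chr7:102441445-102441694, plus strand) and *Rfc4* (chr16:23127731-23127980, minus strand) lost rank at <0.1% O2, and *Pola2* (chr19:5964207-5964456, minus strand) gained it. None of these last 3 holds one of the 4 E2F words in this window. *Rrm1* holds CCAAT at -91 and -45, and *Rfc4* holds the ETS word from -47 to -41.
Mcm5: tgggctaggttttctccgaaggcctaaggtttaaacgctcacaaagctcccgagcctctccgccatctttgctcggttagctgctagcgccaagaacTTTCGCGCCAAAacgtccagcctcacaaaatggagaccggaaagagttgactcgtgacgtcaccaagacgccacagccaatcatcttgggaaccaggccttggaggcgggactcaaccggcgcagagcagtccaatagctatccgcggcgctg
Mcm6: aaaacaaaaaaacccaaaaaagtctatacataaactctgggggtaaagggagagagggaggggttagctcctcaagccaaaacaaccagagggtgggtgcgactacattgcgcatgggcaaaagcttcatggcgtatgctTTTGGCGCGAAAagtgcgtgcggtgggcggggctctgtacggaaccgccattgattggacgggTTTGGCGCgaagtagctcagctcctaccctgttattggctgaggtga
Rrm1: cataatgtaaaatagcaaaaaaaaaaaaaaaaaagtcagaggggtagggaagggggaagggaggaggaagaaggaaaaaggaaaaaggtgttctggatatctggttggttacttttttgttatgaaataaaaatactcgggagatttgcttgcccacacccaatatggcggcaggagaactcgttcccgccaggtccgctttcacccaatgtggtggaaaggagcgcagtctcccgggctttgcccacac
Rfc4: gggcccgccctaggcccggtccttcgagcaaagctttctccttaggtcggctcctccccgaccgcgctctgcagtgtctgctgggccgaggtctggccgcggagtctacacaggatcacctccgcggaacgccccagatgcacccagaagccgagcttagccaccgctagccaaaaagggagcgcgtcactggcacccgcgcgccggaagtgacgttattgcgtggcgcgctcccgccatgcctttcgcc
Pola2: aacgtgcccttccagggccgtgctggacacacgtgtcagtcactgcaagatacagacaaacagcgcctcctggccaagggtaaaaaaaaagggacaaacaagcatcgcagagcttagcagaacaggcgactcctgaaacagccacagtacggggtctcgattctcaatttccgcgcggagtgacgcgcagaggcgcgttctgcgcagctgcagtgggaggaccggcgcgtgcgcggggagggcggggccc

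At <0.1% O2 the replication promoters lost rank about as often as promoters in general. By pileup rank, 16 of 43 genes (37.2%) were called lower and 1 higher than at 21% O2, where 32.0% of all ranked promoter peaks were called lower and 10.2% higher. By fold rank, 10 genes (23.3%) were called lower and 3 higher, against 26.5% and 12.0% of all. The median change of the 43 genes was -6.88 points in pileup rank and -4.38 points in fold rank, against -3.86 and -2.52 points over all ranked promoter peaks. Among promoter peaks of like mean pileup rank, 28.9% were called lower. The pileup rank changed by less than 0 in 35 of 43 genes and ranged from -42.6 points (*Rfc4*) to 14.6 points (*Pola2*), and it was below 0 in 8426 of the 12959 ranked promoter peaks. Ranked instead within the whole peak list of each library, 7 genes were called lower and 1 higher by pileup, and 7 lower and 5 higher by fold, so that the balance of fold calls depended on which peaks were ranked. Of all ranked promoter peaks, 16.0% and 15.9% were then lower and higher by pileup, and 17.4% and 16.8% by fold. The median changes of the genes were then -2.45 points by pileup and -0.441 points by fold. With the trend over GC content subtracted, the median fold rank change was -1.89 points, and it was -2.22 points without replicate 1 at <0.1% O2.

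8 genes were called lower at <0.1% O2 by both measures: *Orc3*, *Gins1*, *Gins3*, *Cdc7*, *Dbf4*, *Rfc1*, *Rfc2* and *Rfc4*. That is 18.6% of the genes, where 19.2% of all ranked promoter peaks were lower by both. By pileup alone *Mcm6*, *Orc2*, *Cdc45*, *Prim1*, *Rfc5*, *Rrm1*, *Rrm2* and *Tyms* were lower, and by fold alone *Orc1* and *Pole*. The calls higher were *Pola2* by pileup and *Mcm4*, *Mcm7* and *E2f1* by fold. No gene was called higher by both measures and none in opposite directions, and of the 12959 ranked promoter peaks 685 and 46 were. 10 of the genes lie on chromosome 5, of which 6 were called lower by pileup at <0.1% O2, and on that chromosome 274 of 830 ranked promoter peaks were.

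**Figure D2:**
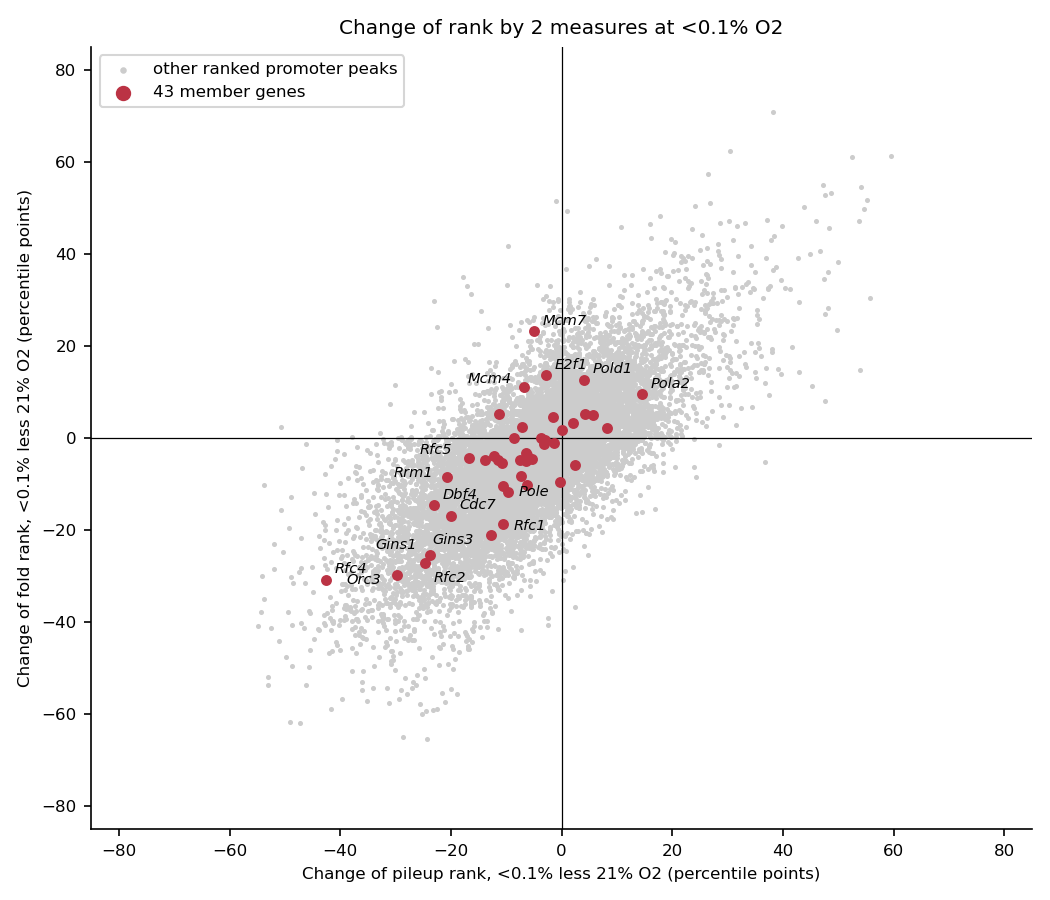
Change of pileup rank (horizontal axis) and of fold rank (vertical axis) from 21% to <0.1% O2, in percentile points, for 43 replication and nucleotide supply genes (red) and all other ranked promoter peaks (grey). The red points spread over the same cloud as the grey ones, with *Rfc4* and *Orc3* at its lower left and *Mcm7* at -4.91 and 23.2, among the peaks whose fold rank and pileup rank moved apart.

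At 1% O2 fewer genes were called. By pileup rank, 7 of 43 genes were lower and 0 higher, against 16.5% and 11.8% of all ranked promoter peaks, and by fold rank 6 were lower and 1 higher, against 16.5% and 11.9%. The genes lower by both measures were *Gmnn*, *Gins1* and *Rfc4* (6.98% of the genes, and 8.26% of all ranked promoter peaks). By pileup alone *Cdc45*, *Rfc2*, *Tyms* and *Tk1* were lower, by fold alone *Cdt1*, *Pole* and *Pole2*, and *Pola2* was higher by fold. The median change was -4.70 points in pileup rank and -0.211 points in fold rank, against -0.396 and -0.961 points over all. Within the whole lists these medians were -0.566 and 1.68 points. The fold median has no firm sign, since it was also 0.710 points without replicate 1 at 1% O2. Ranked within the whole lists, 1 gene was called lower and 2 higher by pileup, and 0 lower and 4 higher by fold, so the direction of the calls at 1% O2 depended on which peaks were ranked, and *Rfc4* by pileup was the only gene still called lower. Of all ranked promoter peaks, 3.64% were then lower and 21.8% higher by pileup, and 6.60% lower and 19.4% higher by fold. Leaving out replicate 1 at 1% O2 raised the number called higher by fold from 1 to 5, and leaving out either normoxic replicate raised it to 4. The comparisons at 1% and <0.1% O2 share the normoxic libraries and are not independent of each other.

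From 1% to <0.1% O2, where the libraries of both groups were of similar depth, 6 of 43 genes were called lower by pileup rank and 0 higher, against 21.9% and 3.89% of all ranked promoter peaks. By fold rank 11 were lower and 2 higher, against 20.5% and 9.14%. With the GC trend subtracted this was 7 lower and 5 higher, against 16.3% and 11.7% of all ranked promoter peaks. The number higher also rose, to 5 without replicate 1 at <0.1% O2 and to 4 without replicate 1 at 1% O2. Ranked within the whole lists the fold calls were 6 lower and 1 higher, against 20.4% and 5.93% of all ranked promoter peaks. By pileup, subtracting the GC trend left 4 genes lower, against 9.76% of all ranked promoter peaks. It also called some genes higher, where 4.21% of all were. *Cdc7*, *Dbf4*, *Mcm6* and *Pola1* lost their fold calls under both alternatives, *Rrm1* within the whole lists. By pileup *Gins3* lost its call under both and *Rfc4* with the GC trend subtracted. *Orc3*, *Gins3*, *Cdc7*, *Dbf4* and *Rrm1* were lower by both measures (11.6% of the genes, and 13.0% of all ranked promoter peaks).

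On the linear scale the median log2 change of the level over the 43 genes was -0.30 at 1% O2 and -0.36 at <0.1% O2, against -0.07 and -0.19 over all ranked promoter peaks. Divided instead by the genome coverage of each library, the medians were -0.13 and -0.52 for the genes, 0.10 and -0.36 for all promoter peaks, and 0.13 and -0.16 for all ranked peaks. This scaling moves every peak of a library by the same amount, so the gap between the genes and all promoter peaks is the same under both by construction.

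**Figure D3:**
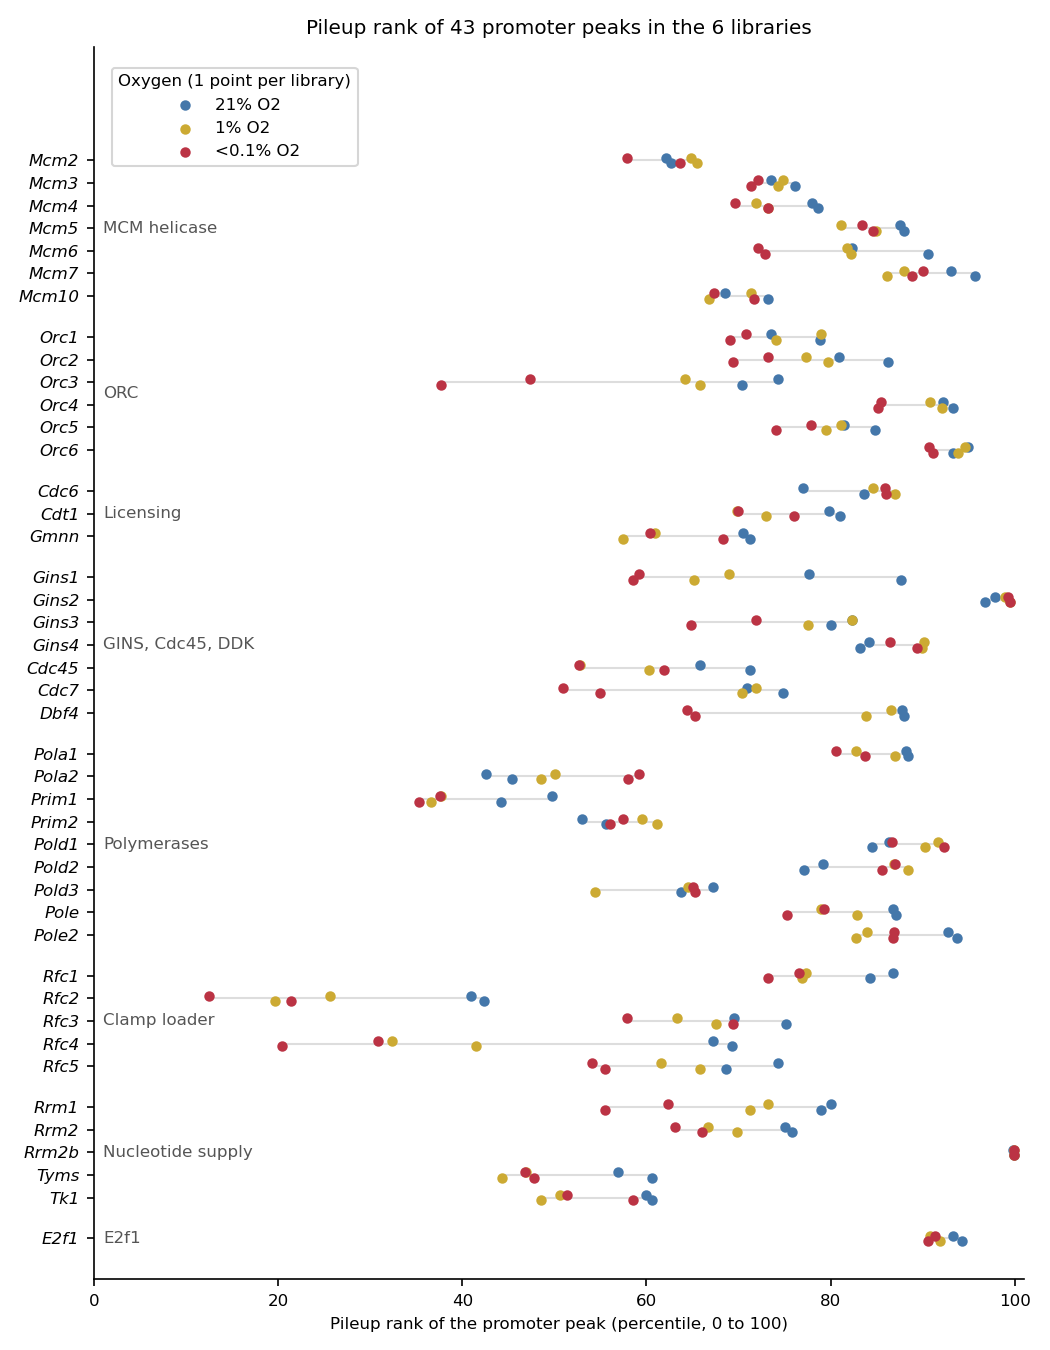
Pileup rank (horizontal axis, percentile from 0 to 100) of the promoter peak of each of 43 genes, grouped by role, with 1 point per library at 21% (blue), 1% (yellow) and <0.1% O2 (red). *Rfc4*, *Orc3* and *Dbf4* show red points far to the left of the blue ones, *Pola2* shows red points to the right, and *Rrm2b* stays at 99.9 in all 6 libraries.

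The origin recognition genes were led by *Orc3*, a core ORC subunit (peak at chr4:34614503-34615694, summit 13.0 bp upstream of the start). Its summit pileup was 107 and 131 fragments in normoxia, 145 and 136 in moderate hypoxia, and 94 and 64 in severe hypoxia. The pileup rank was 74.3 and 70.3 at 21% O2, 64.2 and 65.9 at 1% O2, then 47.3 and 37.7 at <0.1% O2, so that both severe libraries lay below all others. The pileup rank changed by -29.8 points and the fold rank by -29.8 points at <0.1% O2, and 3.90% of all ranked promoter peaks lost as much pileup rank. Against 1% O2 the changes were -22.5 and -30.5 points. The calls at <0.1% O2 held with any 1 library left out. The log2 change of its level was -0.98 ± 0.15 (SE, n = 2 per group).

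Of the other ORC genes, *Orc2* was called lower by pileup (-12.3 points) and *Orc1*, the ATPase subunit whose peak spans *Prpf38a* as well, by fold (-10.2 points). Both calls were lost with the GC trend subtracted, when ranked within the whole lists, and without replicate 2 at 21% O2 (-9.63 points for *Orc2* and -5.76 points for *Orc1*), and *Orc1* was also lost without replicate 2 at <0.1% O2 (-8.98 points). *Orc4*, *Orc5* and *Orc6* were not called, with changes of -7.45, -7.19 and -3.24 points in pileup rank. In all, 2 of 6 ORC genes were lower by each measure and none higher, with a median pileup rank change of -7.32 points, and 32.0% and 26.5% of all ranked promoter peaks were lower by pileup and by fold. Of those of like rank, 23.8% and 14.7% were lower.

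The MCM genes, of which *Mcm2* to *Mcm7* code for the helicase ring and *Mcm10* for a factor that helps to activate it, mostly had small changes in pileup rank. At <0.1% O2, 1 of 7 was called lower and 0 higher, with a median change of -3.73 points, where 32.0% of all ranked promoter peaks were lower, and 27.9% of those of like rank. The 1 was *Mcm6* (peak at chr1:128358926-128360072), at 82.4 and 90.5 at 21% O2, 81.7 and 82.2 at 1% O2, then 72.2 and 72.9 at <0.1% O2, and it was not called when ranked within the whole lists. Its change of -13.9 points was -9.82 points without replicate 2 at 21% O2, the library that stood highest, and was then not called. From 1% to <0.1% O2 its fold rank changed by -10.9 points, a call lost without replicate 1 at <0.1% O2 (-7.83 points) or replicate 2 at 1% O2 (-4.90 points), with -17.0 points without replicate 1 at 1% O2. *Mcm5*, whose promoter holds the paired E2F words shown above, stood at 87.6 and 87.9 at 21% O2, 81.2 and 84.9 at 1% O2, then 83.4 and 84.6 at <0.1% O2. The normoxic libraries lay above all hypoxic ones, by 3.73 points in the mean at <0.1% O2, which is below the size called. *Mcm2*, *Mcm3* and *Mcm10* changed by -1.61, -3.05 and -1.38 points and were not called. On the level scale all 7 MCM genes fell at <0.1% O2. Their median log2 change was -0.25, against -0.19 over all ranked promoter peaks. At 1% O2 the level fell in 6 of 7, with medians of -0.30 and -0.07.

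By fold the MCM genes did not lean lower, with 0 of 7 lower and 2 higher at <0.1% O2, against 26.5% and 12.0% of all ranked promoter peaks. Of those of like rank, 25.0% were lower and 11.6% higher. *Mcm7*, which shares its peak with *Ap4m1*, had fold ranks of 46.7 and 51.1 at 21% O2, 49.3 and 47.9 at 1% O2, then 72.8 and 71.4 at <0.1% O2. Both severe libraries thus lay far above the others by fold, while the pileup rank was 93.0 and 95.7 at 21% O2 and 90.0 and 88.9 at <0.1% O2 and moved the other way. *Mcm4*, which shares its peak with *Prkdc*, changed by 11.0 points in fold rank and by -6.88 points in pileup rank, and its fold call was lost without replicate 2 at <0.1% O2 (9.03 points) or at 21% O2 (9.73 points). The level of *Mcm4* was 1.93 and 2.03 at 21% O2, then 1.52 and 1.66 at <0.1% O2. The study, which tested read counts, lists *Prkdc* among genes whose promoters were less accessible in hypoxia. *E2f1*, the transcription factor that drives many replication genes, showed the same split, with 13.7 points in fold rank and -2.83 points in pileup rank. These 3 calls were made by fold alone. The fold has the local background in its denominator, whose level in each group is given above, and its part in these calls was not tested.

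Of the licensing genes, *Gmnn* (peak at chr13:24761277-24762216), the inhibitor of Cdt1, was called lower at 1% O2. Its pileup rank was 70.5 and 71.3 at 21% O2, 61.0 and 57.4 at 1% O2, then 60.4 and 68.4 at <0.1% O2. The change was -11.7 points by pileup and -11.8 points by fold at 1% O2, and -6.48 and -3.19 points, below the size called, at <0.1% O2. Without replicate 2 at 1% O2 the pileup change was -9.91 points and was not called. *Cdt1*, the loader that geminin binds, changed by -9.04 points by pileup and -10.4 points by fold at 1% O2, of which the fold change was called. That call was lost without replicate 1 at 1% O2 (-6.82 points) or replicate 2 at 21% O2 (-8.88 points). *Cdc6*, the loading ATPase, went the other way without being called, with 5.62 points by pileup and 5.06 points by fold at <0.1% O2, where its normoxic ranks of 77.0 and 83.6 lay below all 4 hypoxic ones, from 84.6 to 87.0. Ranked within the whole lists, neither *Gmnn* nor *Cdt1* was called at 1% O2.

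The promoter peaks of both subunit genes of the Dbf4-dependent kinase, which fires loaded origins, were called lower at <0.1% O2. Their changes at 1% O2 were below the size called. *Dbf4* (peak at chr5:8422240-8423650, shared with *Slc25a40*) had pileups of 156 and 217 at 21% O2, 254 and 211 at 1% O2, then 133 and 113 at <0.1% O2. Its pileup rank was 87.7 and 87.9 at 21% O2, 86.6 and 83.8 at 1% O2, then 64.4 and 65.3 at <0.1% O2. The severe libraries stood well below all the others. The moderate ones also lay below both normoxic ones, with a mean change of -2.63 points by pileup, and *Cdc7* changed by -1.78 points at that level.

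The change of *Dbf4* was -23.0 points by pileup and -14.6 points by fold, and -20.4 and -11.8 points against 1% O2. All 4 calls held with any 1 library left out, but both fold calls were lost when ranked within the whole lists, and the one against 1% O2 also with the GC trend subtracted. The log2 level changed by -0.95 ± 0.05 (SE, n = 2 per group). *Cdc7*, the kinase subunit (peak at chr5:106964006-106964982), had pileup ranks of 71.0 and 74.9 at 21% O2, 71.9 and 70.4 at 1% O2, then 50.9 and 55.0 at <0.1% O2. It changed by -20.0 points by pileup and by -16.8 points by fold. The pileup call held with any 1 library left out, whereas the fold change was -9.35 points without replicate 1 at <0.1% O2. Against 1% O2 the pileup change was -18.2 points. The fold change there was -13.8 points, -6.26 without replicate 1 and -21.2 without replicate 2 at <0.1% O2, and -9.77 without replicate 1 at 1% O2.

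The 4 GINS genes code for 1 complex but did not move together. *Gins1* (peak at chr2:150909463-150910071) was lower at both hypoxia levels, with pileup ranks of 77.7 and 87.6 at 21% O2, 69.0 and 65.2 at 1% O2, then 59.2 and 58.6 at <0.1% O2. Its pileup rank changed by -15.6 points at 1% O2 and -23.8 points at <0.1% O2, and both calls held with any 1 library left out, although within the whole lists *Gins1* was called at <0.1% O2 alone. The fold rank changed by -13.7 and -25.5 points, but the first was -4.31 points without replicate 2 and -23.2 points without replicate 1 at 21% O2, and the second was -16.1 points without replicate 2 at 21% O2. Against 1% O2 the fold change of -11.8 points was -5.29 without replicate 1 and -18.2 without replicate 2 at <0.1% O2.

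*Gins3* (peak at chr8:95633223-95634114) was lower at <0.1% O2 alone, with pileup ranks of 82.4 and 80.0 at 21% O2, 82.3 and 77.6 at 1% O2, then 71.9 and 64.9 at <0.1% O2. The changes of -12.8 points by pileup and -21.1 points by fold were -9.31 and -13.5 points without replicate 2 at <0.1% O2. Against 1% O2 they were -11.6 and -19.9 points, and -8.06 and -12.3 points without that library, and the pileup change was -9.21 points without replicate 1 at 1% O2. Ranked within the whole lists, the pileup call of *Gins3* was lost.

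*Gins2* and *Gins4* were not called lower in any comparison. *Gins4* stood at 84.2 and 83.2 at 21% O2, 90.2 and 89.9 at 1% O2, then 86.5 and 89.4 at <0.1% O2, with every hypoxic library above the normoxic ones and a change of 4.23 points at <0.1% O2. *Gins2* has its peak (chr8:120588801-120589660) near the top of the ranks, between 96.7 and 99.5, where a rank can hardly rise, and was looked at on the level scale after its values were seen. There its level was 4.46 and 4.33 times the median peak at 21% O2, 5.16 and 6.06 at 1% O2, then 5.99 and 6.73 at <0.1% O2. All 4 hypoxic libraries lay above the normoxic ones, with a log2 change of 0.53 ± 0.09 (SE, n = 2 per group) at <0.1% O2, and of 0.37 when divided by genome coverage.

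*Cdc45*, which joins MCM and GINS in the active helicase and whose peak also spans *Ufd1*, was lower by pileup at both levels, with -12.0 points at 1% O2 and -11.3 points at <0.1% O2. By fold it changed by 0.873 and 5.21 points. The pileup calls were lost within the whole lists and without replicate 2 at 21% O2 (-9.30 and -8.55 points), and also without replicate 1 at 1% O2 (-8.23 points) or at <0.1% O2 (-6.64 points) respectively. In all, 5 of 7 firing genes were lower by pileup at <0.1% O2 and 4 by fold, with medians of -12.8 and -14.6 points and none higher, where 32.0% and 26.5% of all ranked promoter peaks were lower, and 26.2% and 20.3% of those of like rank. This is a count over 7 genes, with no test.

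**Figure D4:**
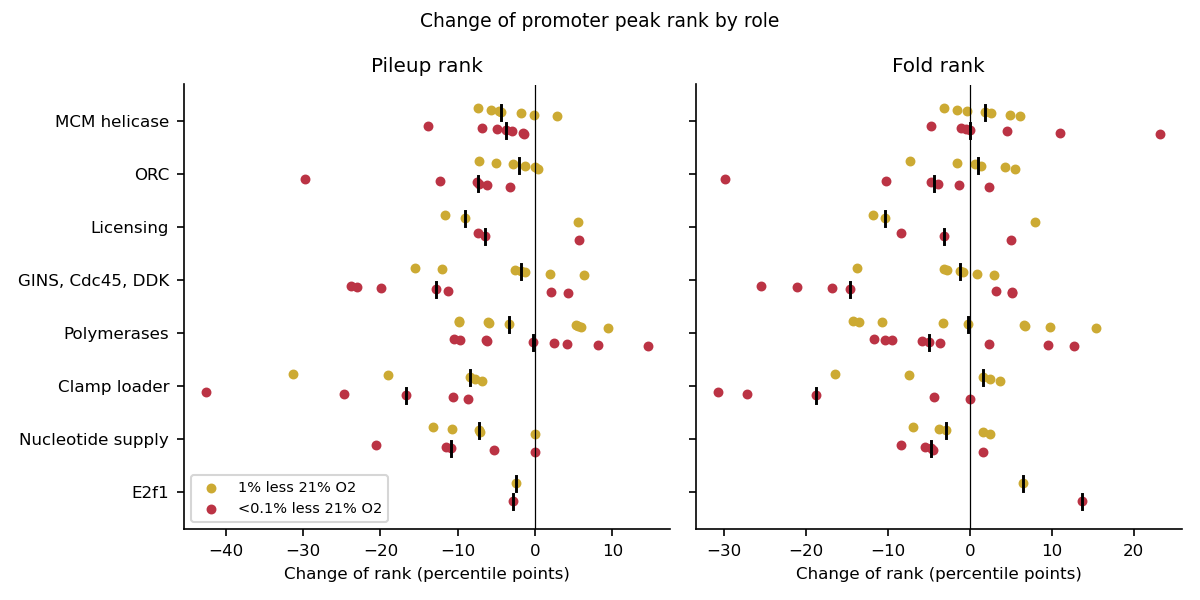
Change of pileup rank (left) and fold rank (right) in percentile points from 21% O2 to 1% O2 (yellow) and to <0.1% O2 (red), with 1 point per gene, the genes grouped by role (vertical axis) and the median of each group as a black bar. DDK stands for the Cdc7 and Dbf4 kinase. At <0.1% O2 the firing genes and the clamp loader have the lowest medians by both measures, while the median of the MCM genes lies near 0 by fold, with *Mcm7* and *Mcm4* far to its right.

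The clamp loader promoters held the largest fall among the 43 genes. *Rfc4* (peak at chr16:23127520-23128345, summit 162 bp upstream of the start, with the noncoding gene *6330408M09Rik* in the same peak) had pileups of 91 and 128 at 21% O2, 74 and 82 at 1% O2, then 67 and 44 at <0.1% O2, although the hypoxic libraries were deeper. Its pileup rank was 67.2 and 69.3 at 21% O2, 32.4 and 41.5 at 1% O2, then 30.9 and 20.5 at <0.1% O2. Both normoxic libraries stood far above all 4 hypoxic ones.

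The pileup rank of *Rfc4* changed by -31.3 points at 1% O2 and by -42.6 points at <0.1% O2. Of the 12959 ranked promoter peaks, 55 lost as much at 1% O2 and 57 at <0.1% O2, the gene itself included (0.424% and 0.440%). The fold rank changed by -16.4 and -30.8 points, the latter -19.3 points without replicate 2 at <0.1% O2, and no call against 21% O2 was lost with any 1 library left out. The log2 level changed by -1.03 ± 0.15 at 1% O2 and -1.36 ± 0.17 at <0.1% O2 (SE, n = 2 per group), a ratio of 0.490 and 0.390 to normoxia. Between the hypoxia levels the pileup change was -11.3 points, but -6.08 points without replicate 2 at <0.1% O2 and -6.75 points without replicate 2 at 1% O2. The pileup of 44 carries an exact Poisson 95% interval of 32.0 to 59.1, which covers counting error only.

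*Rfc2* (peak at chr5:134582538-134583491) had the lowest pileup among the genes in every library but replicate 2 at <0.1% O2, and it fell as well. Its pileup was 50 and 67 at 21% O2, 63 and 50 at 1% O2, then 42 and 45 at <0.1% O2. The pileup rank was 40.9 and 42.4 at 21% O2, 25.6 and 19.7 at 1% O2, then 12.5 and 21.4 at <0.1% O2, with no overlap between normoxia and hypoxia. It changed by -19.0 points at 1% O2 and -24.7 points at <0.1% O2 by pileup, and by -7.38 points, not called, and -27.2 points by fold. Against 1% O2 it changed at <0.1% O2 by -19.8 points by fold, which was called, and by -5.70 points by pileup. Its calls held with any 1 library left out, but the one at 1% O2 was lost within the whole lists.

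*Rfc1*, the large subunit of the clamp loader (peak at chr5:65335244-65336166), changed by -18.7 points by fold and -10.6 points by pileup at <0.1% O2. The pileup call was lost without replicate 2 at <0.1% O2 (-8.91 points), without replicate 1 at 21% O2 (-9.38 points), with the GC trend subtracted and when ranked within the whole lists. Against 1% O2 the fold rank of *Rfc1* changed by -21.2 points, a call that held with any 1 library left out, and its pileup rank by -2.23 points. *Rfc5* was lower by pileup (-16.7 points) and changed by -4.38 points by fold, and its pileup call too was lost within the whole lists. *Rfc3*, which holds an E2F word, changed by -8.66 points by pileup and 0.0123 points by fold and was not called. In all, 4 of 5 genes were lower by pileup at <0.1% O2 and 3 by fold, with medians of -16.7 and -18.7 points, where 32.0% and 26.5% of all ranked promoter peaks were lower, and 38.4% and 28.1% of those of like rank.

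The polymerase and primase genes moved both ways by pileup at <0.1% O2, from -10.5 points (*Prim1*) to 14.6 points (*Pola2*), with 1 of 9 lower, 1 higher and a median of -0.295 points, where 32.0% of all ranked promoter peaks were lower and 10.2% higher. By fold 1 was lower and 0 higher, with a median of -4.93 points, against 26.5% and 12.0% of all. Of promoter peaks of like rank, 29.9% were lower by pileup and 31.1% by fold. *Pola2*, the accessory subunit of polymerase alpha (peak at chr19:5963845-5964551), had pileups of 52 and 72 at 21% O2, 108 and 95 at 1% O2, then 119 and 97 at <0.1% O2. Its pileup rank was 42.6 and 45.4 at 21% O2, 50.1 and 48.5 at 1% O2, then 59.2 and 58.1 at <0.1% O2. The 3 groups did not overlap and the order followed the oxygen level. Among the 43 genes this was the largest rise in pileup rank, though not in fold rank (*Mcm7*) or on the level scale (*Gins2*).

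The pileup rank of *Pola2* changed by 14.6 points at <0.1% O2, and this call held with any 1 library left out, while 5.56% of all ranked promoter peaks rose as much. The fold rank changed by 15.5 points at 1% O2, but by 7.28 points without replicate 1 and 23.7 points without replicate 2 at 21% O2, and by 9.49 points at <0.1% O2. The log2 level changed by 0.45 ± 0.04 (SE, n = 2 per group) at <0.1% O2, and by 0.28 when divided by genome coverage.

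*Pold2* and *Pold1*, subunits of the lagging strand polymerase delta, had the next largest rises in pileup rank at <0.1% O2 along with *Cdc6* and *Gins4*, but none was called. *Pold2* stood at 79.1 and 77.1 at 21% O2, 86.8 and 88.4 at 1% O2, then 87.0 and 85.6 at <0.1% O2, with all hypoxic libraries above normoxia by 8.17 points in the mean at <0.1% O2. *Pold1* changed by 4.11 points by pileup and by 12.7 points by fold, where the libraries overlapped and the change was -1.67 points without replicate 2 and 27.1 points without replicate 1 at <0.1% O2. In contrast *Pole*, the catalytic subunit of the leading strand polymerase epsilon, was lower by fold at both levels, with -14.2 and -11.7 points, and *Pole2* at 1% O2, with -13.5 points. The calls of *Pole* were lost without replicate 1 at 1% O2 (-7.93 points) and without replicate 2 at <0.1% O2 (-5.92 points) or at 21% O2 (-7.87 points), and none of these 3 calls was met within the whole lists. Their pileup ranks changed by -9.71 and -6.38 points at <0.1% O2. *Prim1*, the primase subunit, was lower by pileup at <0.1% O2 (-10.5 points), a call lost within the whole lists and without replicate 2 at <0.1% O2 (-9.38 points) or replicate 1 at 21% O2 (-7.74 points). Its fold rank changed by -20.2 points from 1% to <0.1% O2, a call that held with any 1 library left out, while its pileup rank changed by -0.678 points. *Pola1*, *Pold3* and *Prim2* were not called by either measure against 21% O2, with -6.17, -0.295 and 2.42 points by pileup at <0.1% O2. From 1% to <0.1% O2 *Pola1* was lower by fold (-10.3 points), but not without replicate 1 at <0.1% O2 (-9.34 points) or replicate 2 at 1% O2 (-6.86 points).

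Among the genes of nucleotide supply, the promoter peaks of the ribonucleotide reductase subunits differed. *Rrm1*, the large subunit (peak at chr7:102441361-102442265), had pileup ranks of 80.0 and 79.0 at 21% O2, 73.2 and 71.3 at 1% O2, then 62.3 and 55.5 at <0.1% O2, in 3 groups that did not overlap. The change of -20.6 points at <0.1% O2 was called by pileup and held with any 1 library left out, while the fold rank changed by -8.37 points. From 1% to <0.1% O2 it changed by -13.4 points by pileup and -10.9 points by fold, and by -9.95 and -6.53 points, not called, without replicate 2 at <0.1% O2. *Rrm2*, the S phase small subunit (peak at chr12:24707427-24708820), had pileup ranks of 75.0 and 75.8 at 21% O2, 66.7 and 69.8 at 1% O2, then 63.1 and 66.1 at <0.1% O2.

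*Rrm2* changed by -10.8 points by pileup at <0.1% O2, a call lost without replicate 1 at <0.1% O2 (-9.34 points), with the GC trend subtracted and within the whole lists, and by -5.47 points by fold. *Rrm2b*, the small subunit used outside S phase (peak at chr15:37960476-37961575), had pileups of 456 and 707 at 21% O2, 862 and 785 at 1% O2, then 815 and 730 at <0.1% O2, the highest of the 43 genes in every library. Its pileup rank was 99.9 in every library. On the level scale, which has no ceiling, it was 7.48 and 8.84 times the median peak at 21% O2, 7.98 and 8.01 at 1% O2, then 8.23 and 8.90 at <0.1% O2, so that the groups overlapped, with a log2 change of 0.07 ± 0.13 (SE, n = 2 per group). The log2 level of *Rrm2* changed by -0.44 ± 0.07 and that of *Rrm1* by -0.77 ± 0.10 over the same libraries.

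*Tyms*, thymidylate synthase, was lower by pileup at 1% O2 (-13.2 points) and at <0.1% O2 (-11.5 points), both lost within the whole lists and the second also without replicate 2 at 21% O2 (-9.66 points), and by fold it changed by -2.86 and -4.69 points. *Tk1*, thymidine kinase, was lower by pileup at 1% O2 (-10.7 points), not without replicate 2 at 1% O2 (-9.68 points) nor within the whole lists, and changed by -5.30 points at <0.1% O2. In all, 3 of 5 genes were lower by pileup and none by fold at <0.1% O2, with medians of -10.8 and -4.69 points, beside 32.0% and 26.5% of all ranked promoter peaks. Of those of like rank, 32.0% and 21.6% were lower.

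**Figure D5:**
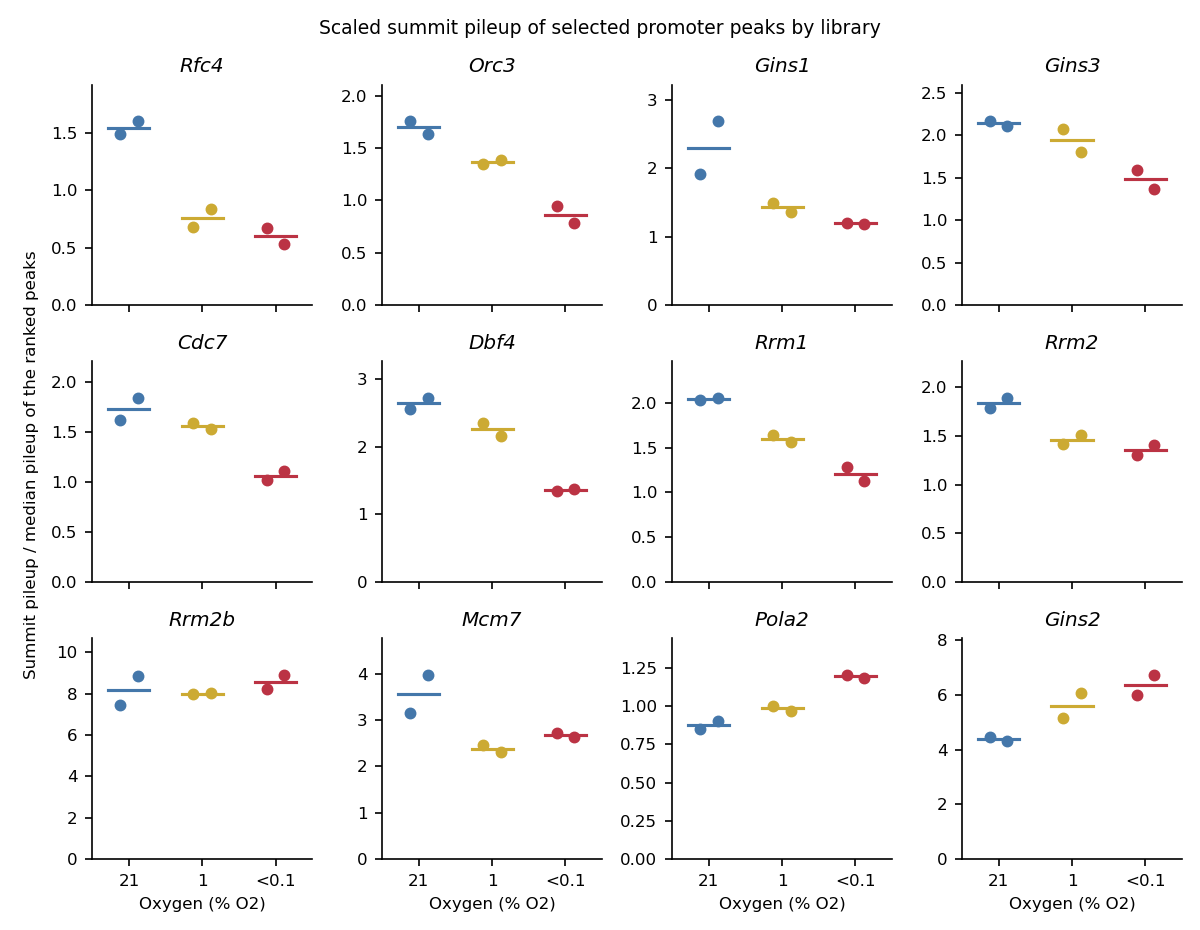
Summit pileup divided by the median pileup of the ranked peaks of the library (vertical axis, from 0) for 12 promoter peaks at 21%, 1% and <0.1% O2 (horizontal axis), with 1 point per library and a bar at the mean of the 2. *Rfc4* drops at both hypoxia levels, *Dbf4*, *Cdc7* and *Orc3* lie lowest at <0.1% O2, *Rrm1* and *Rrm2* lie below normoxia while *Rrm2b* overlaps it, and *Pola2* and *Gins2* lie above normoxia.

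The called genes were set beside the E2F words. Among genes with a RefSeq window, 3 of 14 with an E2F word (*Mcm6*, *Orc3* and *Gins3*) were lower by pileup at <0.1% O2, and 11 of 20 without one. Ranked within the whole lists, these were 1 of 14 and 4 of 20. The windows of *Cdc6*, *Mcm5* and *Mcm7*, counted with a word, and of *Cdc45*, *E2f1* and *Orc6*, counted without, do not reach the start of the ranked peak. *Cdc45* is among the genes called lower. Words were matched exactly, and *Rrm1* and *Prim1*, called lower and counted without, hold the near match GTTCCCGC. The median pileup rank changes of members with and without a word were -6.19 and -10.6 points. By fold, 3 of 14 and 4 of 20 were lower, with medians of -4.20 and -4.42 points, where over all genes with a ranked promoter peak 24.5% with and 27.8% without an E2F word were lower by fold. Over all genes with a ranked promoter peak, the 428 with an E2F word had a median pileup rank change of -5.11 points and the 9403 without one -4.50 points, and 33.2% and 33.7% of them were called lower, so that the contrast among the members was not present over all genes. No test was made of these differences.

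Other genes of the same pathway, from lists of their own, are set beside them, with the promoter shares given above. Of 39 further replication fork genes, 16 were called lower by pileup and 1 higher at <0.1% O2, and 8 lower and 4 higher by fold. Of 33 further nucleotide synthesis genes with a ranked peak, 10 were lower and 2 higher by pileup, and 7 lower and 1 higher by fold. Of 24 E2F, DREAM complex and S phase entry genes, 13 were lower and 0 higher by pileup, with a median of -10.7 points, and 10 lower and 2 higher by fold. Of 10 HIF target genes taken as a check of hypoxia, 8 had a ranked promoter peak. By pileup *Pdk1*, *Egln3* and *Ankrd37* were higher at 1% O2, and at <0.1% O2 *Pdk1* and *Ankrd37* were higher and *Ldha* lower. By fold 3 of the 8 were lower at 1% O2 and 4 at <0.1% O2, with none higher.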

How the data were processed

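ATACseq of GL261 cells at 21%, 1% or <0.1% O2 was analysed, with 2 libraries per group. Per the labels and the study's methods, the authors trimmed reads (Trimmomatic), aligned them to mm10 (bowtie2 2.2.5), discarded duplicates (Picard) and blacklisted regions, and ran MACS2 2.1.1.2 on each library by itself. Every row of the deposited lists gives a peak's fold, which is the ratio of its height to the local background, together with a p-value and a q-value, both given as −log10. The differential test of the study needs read counts and was not run here.

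The summit pileup was recovered as the whole number that gives both the fold and the p-value, within 0.01 of the −log10 p-value, for 100% of the peaks. Recovery of the pileup, and the call rule on pileup ranks, were tried on simulated data that held no shift of local background between groups. Fold ranks were not simulated. Stretches over 200 bp shared by both replicates were merged across groups, and peaks present in all 6 libraries were ranked by their highest fold and pileup per library. Promoters lay within 2000 bp of a GENCODE M21 start, and the promoter peak with the highest mean pileup rank stood for a gene. Alternatives were a −log10 q of at least 5, any overlap of replicates, a window of 500 bp, ranks within the whole lists, a GC trend (lowess) subtracted, the peak of highest fold rank, a replicate block, each library left out and scaling by genome coverage.

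Genes named are those called by both measures against 21% O2, the 5 largest falls and 5 largest rises in pileup rank at <0.1% O2, and the pairs *Rrm2* and *Rrm2b*, *Cdt1* and *Gmnn*, and *Cdc7* and *Dbf4*. Other genes named with values, such as *Rrm1*, *Gins2* and *Mcm7*, were chosen after their values were seen. The members, lists and motifs were chosen with earlier results of these data known. Scripts ran in Python 3.11.15, with tables handled by pandas 2.3.3 and numpy 2.4.6, the lowess by statsmodels 0.14.6, intervals by scipy 1.17.1 and plots by matplotlib 3.10.9.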

Additional observations from a re-analysis of the deposited data

How the results depend on the processing

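A −log10 q of at least 5, any overlap of replicate peaks, a promoter window of 500 bp and the peak of highest fold rank left every count of called genes within 1.5 times and every median within the spread between replicates, and all 43 genes kept a ranked peak. With ranks within the whole lists, against 21% O2 the fold calls became 0 lower and 4 higher at 1% O2 and 5 higher at <0.1% O2, and the pileup calls 1 lower and 2 higher at 1% O2 and 7 lower at <0.1% O2. The shares of all ranked promoter peaks for these calls are given above. From 1% to <0.1% O2 the fold calls became 6 lower and 1 higher, against 20.4% and 5.93% of all ranked promoter peaks. The median changes became 1.68 and -0.441 points by fold and -0.566 and -2.45 points by pileup at 1% and <0.1% O2. With the GC trend subtracted, the medians were -1.89 points by fold at <0.1% O2 and -5.64 and -5.47 points by pileup at 1% and <0.1% O2. The pileup calls at <0.1% against 21% O2 became 13 lower and 2 higher, where 24.1% and 15.2% of all ranked promoter peaks were. From 1% to <0.1% O2 the fold calls became 7 lower and 5 higher, against 16.3% and 11.7% of all. The pileup calls there became 4 lower and 3 higher, against 9.76% and 4.21% of all. The cause of these shifts was not tested. Scaling by genome coverage gave median log2 changes of -0.13 and -0.52 in place of -0.30 and -0.36. With a library left out, the genes called higher by fold ranged from 1 to 5 (1% against 21% O2), 3 to 5 (<0.1% against 21% O2) and 2 to 5 (<0.1% against 1% O2), and by pileup from 0 to 1 and, between the hypoxia levels, from 0 to 2. The medians ranged from -1.20 to 0.710 and -4.51 to -2.22 points by fold, and from -5.57 to -3.31 and -7.77 to -5.50 points by pileup, at 1% and <0.1% O2. No called change of a named gene turned its sign with a library left out. Same-numbered libraries did not deviate together (correlations from -0.0498 to 0.0296), and with a replicate block the counts lower were 7, 11 and 11 by fold and 7, 16 and 6 by pileup, all within 1.5 times. With 2 libraries per group, a pileup of 42 to 862 fragments per gene and no read counts, single calls rest on size and separation alone.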
